A study of Mus musculus with 8 samples.

Results

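The secreted Wnt modulators examined here were 10 genes given as a list by symbol: *Rspo1*, *Rspo3*, *Dkk1*, *Dkk2*, *Dkk3*, *Sfrp1*, *Sfrp2*, *Sfrp4*, *Wif1* and *Sostdc1*. They are 10 of the 28001 features in the matrices, and each had at least 1 unique molecular identifier (UMI, which marks 1 captured transcript) in every library. Single cells of embryonic mouse forelimbs were profiled with 10x Genomics 3′ droplet libraries. The 6 sorted groups, from E11.5 to E14.5 at 1-day steps and the proximal and distal segments of E16.5 limbs, held tdTomato+ cells from C57BL/6J embryos labelled Hic1CreERT2/CreERT2;Rosa26LSLtdTomato/tdTomato, and each was 1 library. The other group held whole forelimbs at E11.5 in 2 libraries (whole 1 and whole 2), labelled as containing tdTomato+ and tdTomato- cells, and according to the methods they came from limbs with the same alleles and held all lineage-negative cells.

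All dams were over 7 weeks old and received 7.5 mg of tamoxifen by gavage at embryonic day 10, so every group carried the Cre, the reporter and the drug. Cre was driven from the *Hic1* locus, forelimbs of several embryos were pooled per sort, and cells bearing CD45, CD117, CD31, CD11b, F4/80 or Ter119 were gated out. The E16.5 proximal segment ran from the distal stylopod through the elbow to the proximal zeugopod, and the distal segment held the distal zeugopod and the autopod (hand). Cells with at least 3000 UMIs and at most 10% mitochondrial UMIs were kept, which left 53085 of 57469 barcodes, between 3165 (E11.5 sorted) and 11109 (E16.5 proximal) per library, with median depths of 6788 to 18473 UMIs. The v2 kit was used until E13.5 and the v3 kit afterwards, so stage and kit cannot be told apart between E13.5 and E14.5. *Hic1* was at 22 to 38.02 CPM (the UMIs of a gene per 1000000 UMIs) in the sorted libraries and at 0.702 and 0.741 CPM in whole 1 and whole 2, and tdTomato was at 427 to 1341 against 3.88 and 4.21 CPM. The mesenchymal gene *Prrx1* was at 201 CPM or more in all 8 libraries, whereas the leukocyte gene *Ptprc* was at 0.117 CPM or less. Any 2 libraries shared at most 1.04% of the barcodes of the smaller one.

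Wnt proteins are lipid-modified ligands that bind Frizzled receptors and the co-receptors LRP5 and LRP6, and canonical signalling stabilises β-catenin, which activates target genes with TCF/LEF factors. Secreted modulators set how far a Wnt signal reaches: R-spondins bind LGR receptors and keep the ligases ZNRF3 and RNF43 from removing Frizzled, Dickkopf proteins such as DKK1 and DKK2 block LRP5/6, and secreted Frizzled-related proteins and WIF1 bind the Wnt ligands themselves. In the limb, Wnt signalling acts in outgrowth and patterning, in dermis and hair follicle formation, and in the choice between cartilage and bone.

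The upstream sequences of *Dkk2* and *Sfrp2*, which were highest in the same E16.5 cluster, and of *Rspo1*, which was highest in another cluster, are shown because the results turn on these genes. The RefSeq promoter table (GRCm38.p6) held a window for 5 of the 10 members. Each printed window is the 250 bases before the transcription start, 5′ to 3′ on the strand of the gene, with TATAAA, the core of a promoter element searched on that strand only, in capitals.

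Dkk2, chr3:132085042-132085291, plus strand: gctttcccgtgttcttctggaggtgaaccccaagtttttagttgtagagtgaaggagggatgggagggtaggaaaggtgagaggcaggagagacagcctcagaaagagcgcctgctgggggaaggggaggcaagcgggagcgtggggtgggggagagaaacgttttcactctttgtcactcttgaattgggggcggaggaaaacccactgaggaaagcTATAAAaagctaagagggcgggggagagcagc

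Sfrp2, chr3:83766071-83766320, plus strand: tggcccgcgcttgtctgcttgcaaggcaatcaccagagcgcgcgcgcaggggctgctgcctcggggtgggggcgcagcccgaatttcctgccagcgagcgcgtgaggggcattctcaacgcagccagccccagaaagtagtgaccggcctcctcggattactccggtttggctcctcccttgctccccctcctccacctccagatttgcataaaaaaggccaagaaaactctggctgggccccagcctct

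Rspo1, chr4:124986180-124986429, plus strand: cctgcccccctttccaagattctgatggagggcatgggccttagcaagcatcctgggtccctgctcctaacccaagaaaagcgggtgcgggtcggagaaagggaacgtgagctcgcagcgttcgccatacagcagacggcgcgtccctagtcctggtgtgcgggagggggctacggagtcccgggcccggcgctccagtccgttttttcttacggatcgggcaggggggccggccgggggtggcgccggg

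TATAAA lay 32 bases before the start of *Dkk2* and was not found in the *Sfrp2* or *Rspo1* window, and 7.59% of the 32851 windows in the table held it. The core letters bound by TCF/LEF factors, CTTTGA on either strand (TCAAAG when read on the strand of the gene), were in none of these 3 windows and in 13.8% of all windows. Of the other members with a window, *Wif1* held neither sequence, and *Dkk1* held CTTTGA 117 bases and TCAAAG 174 bases before its RefSeq start, together with TATAAA at 54 bases. The RefSeq starts of *Dkk1* and *Wif1* differed from those of GENCODE, so these windows are not printed. The matches were counted by letters alone.

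The levels of the members over the libraries are described first. Levels are sums of UMIs in each library outside epithelial-like clusters, so more cells with a gene and more RNA per cell cannot be told apart in them. Shares of cells are given with every cell thinned to 3000 UMIs. Each sorted group was 1 library, so steps between them have no replicate check and no test, and intervals are exact 95% Poisson, binomial or ratio intervals that cover counting error only. Summed over the 10 genes, the level was 289 and 297 CPM in whole 1 and whole 2. In sorted cells it was 441, 522, 689 and 815 CPM from E11.5 to E14.5 in order of stage, and 478 and 529 CPM in the proximal and distal segments. The sum was thus highest at E14.5. The share of thinned cells with no UMI of any member was 48.6% and 47.1% in whole 1 and whole 2, 36.1% in sorted E11.5 cells, 21.1% in E14.5 cells and 38.4% in the E16.5 proximal segment.

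**Figure D1:**
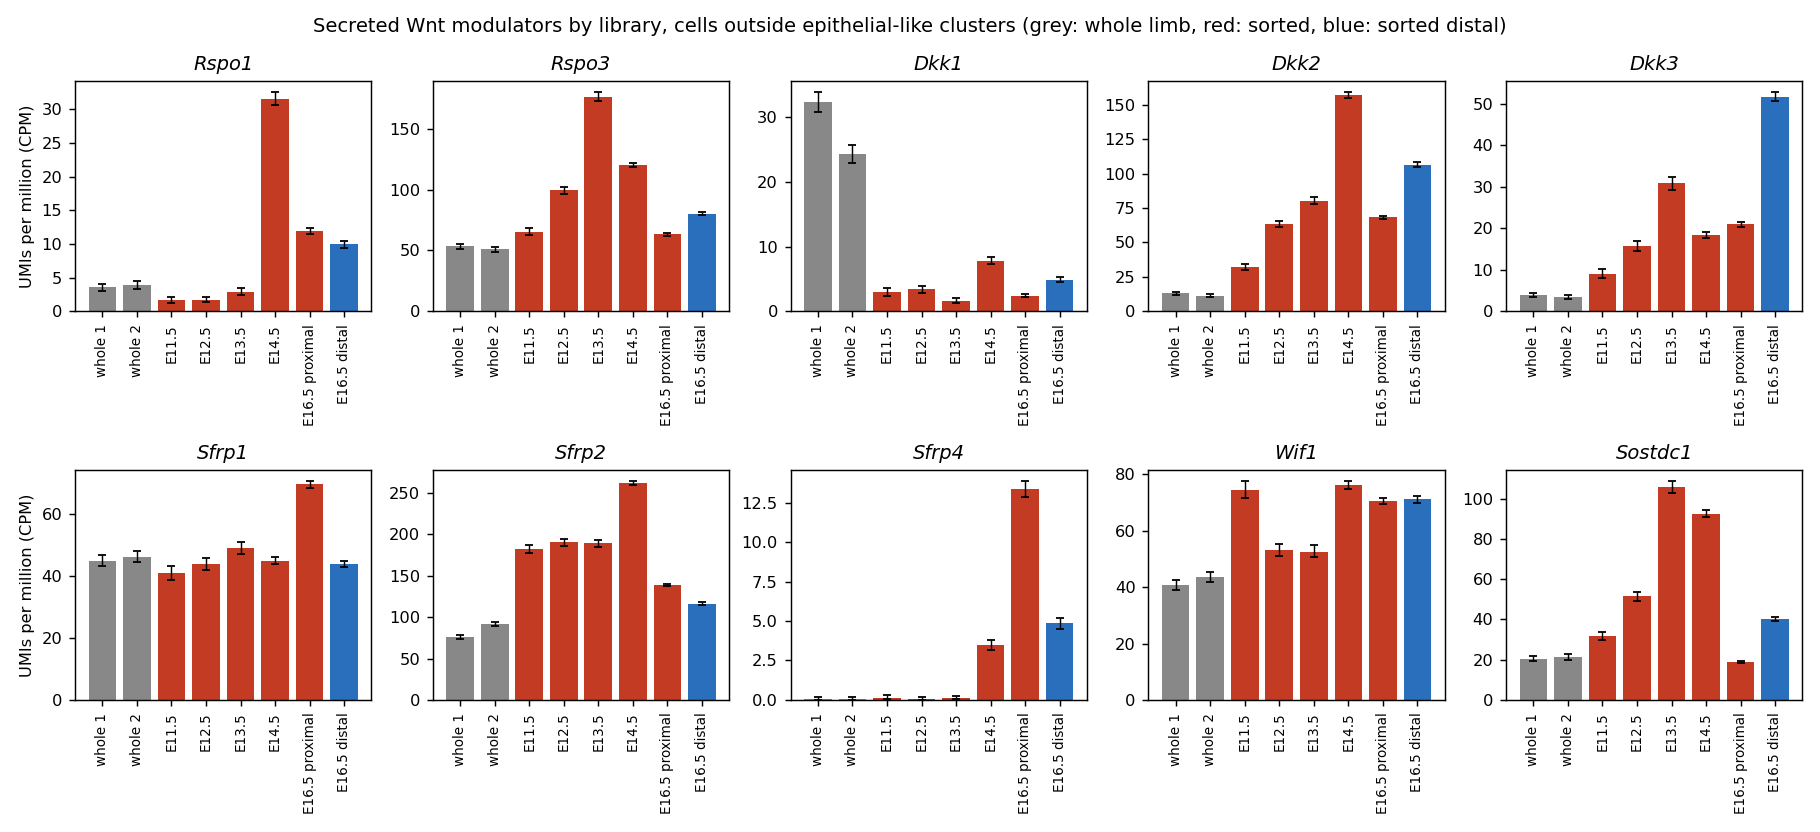
Level of each of the 10 genes (CPM, linear axis from 0) in the 8 libraries over cells outside epithelial-like clusters, with whole limb in grey, sorted cells in red and the sorted distal segment in blue, and error bars giving exact 95% Poisson intervals. *Rspo1*, *Dkk2* and *Sfrp2* were highest at E14.5 (31.6, 157 and 262 CPM), *Dkk1* in the whole limb libraries (32.3 and 24.3 CPM) and *Sfrp4* at E16.5 proximal (13.4 CPM).

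Among the R-spondins, which potentiate Wnt signals, *Rspo1* (ENSMUSG00000028871, plus strand of chromosome 4, 124986430 to 125009099, GRCm38) was low until E13.5. Its level was 3.56 and 3.87 CPM in whole 1 and whole 2, followed in sorted cells by 1.65, 1.74, 2.89 and 31.6 CPM from E11.5 to E14.5 and by 12 CPM proximally and 9.95 CPM distally. It was 11-fold higher at E14.5 than at E13.5 (9.21 to 13.1) and then 2.65-fold lower at E16.5 proximal (2.52 to 2.78). *Rspo3* (ENSMUSG00000019880, minus strand of chromosome 10, 29452416 to 29535867) peaked earlier. Its level was 53.4 and 51 CPM in whole 1 and whole 2, then 65.3, 99.5, 176 and 120.3 CPM from E11.5 to E14.5 in sorted cells, with 63.2 CPM proximally and 80.3 CPM distally. A UMI of *Rspo3* was found in 28.2% of thinned E13.5 cells and in 13.9% of proximal E16.5 cells.

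The Dickkopf genes followed different courses. *Dkk1* (ENSMUSG00000024868, minus strand of chromosome 19, 30545863 to 30549665), an LRP5/6 antagonist needed for head and limb development, was at 32.3 and 24.3 CPM in whole 1 and whole 2. In sorted cells it was at 2.98, 3.39, 1.61 and 7.83 CPM from E11.5 to E14.5, and at 2.41 CPM proximally and 4.87 CPM distally, below both whole limb libraries throughout. *Dkk2* (ENSMUSG00000028031, plus strand of chromosome 3, 132085292 to 132180304), which also binds LRP5/6, was higher at each step up to E14.5. It was at 13 and 11.3 CPM in whole 1 and whole 2, at 32.1, 63.3, 80.2 and 157 CPM over the 4 sorted stages to E14.5, and at 68.1 CPM proximally and 107 CPM distally. *Dkk3* (ENSMUSG00000030772, minus strand of chromosome 7, 112116017 to 112159057), a divergent member of the family, was at 3.91 and 3.46 CPM in whole 1 and whole 2, at 9.08, 15.7, 30.8 and 18.4 CPM over the 4 sorted stages to E14.5, and at 21 CPM proximally and 51.7 CPM distally. Its highest level was thus in the distal segment.

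The secreted Frizzled-related genes encode Wnt-binding proteins with a Frizzled-type cysteine-rich domain. *Sfrp1* (ENSMUSG00000031548, plus strand of chromosome 8, 23411502 to 23449632) varied least, at 40.9 to 49.1 CPM in 7 libraries and 69.7 CPM at E16.5 proximal. In the order of those 7 libraries no neighbours had separate intervals. *Sfrp2* (ENSMUSG00000027996, plus strand of chromosome 3, 83766321 to 83774316) was at 76.3 and 92 CPM in whole 1 and whole 2, at 183, 190.4, 189 and 262 CPM over the 4 sorted stages to E14.5, and at 139 CPM proximally and 116 CPM distally. The intervals of E12.5 and E13.5 overlapped, as did those of E13.5 and E11.5. *Sfrp4* (ENSMUSG00000021319, plus strand of chromosome 13, 19623104 to 19632994) had 3 to 5 UMIs in each library up to E13.5, then 459 UMIs (3.47 CPM) at E14.5, with 2660 UMIs (13.4 CPM) in the proximal and 761 UMIs (4.85 CPM) in the distal segment. It was 31.5-fold higher at E14.5 than at E13.5 (13.4 to 97.4), with 5 UMIs on the lower side, and 3.86-fold higher again at E16.5 proximal (3.49 to 4.27).

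*Wif1* (ENSMUSG00000020218, plus strand of chromosome 10, 121033960 to 121100650) encodes a secreted protein that binds Wnt ligands. It was at 40.7 and 43.5 CPM in whole 1 and whole 2, at 74.4, 53.1, 52.6 and 76.3 CPM over the 4 sorted stages to E14.5, and at 70.5 CPM proximally and 71.1 CPM distally. Its intervals overlapped between E14.5 and E11.5 and between both E16.5 segments. *Sostdc1* (ENSMUSG00000036169, plus strand of chromosome 12, 36314139 to 36318452) encodes a secreted protein that binds LRP co-receptors and BMPs. It was at 20.5 and 21.3 CPM in whole 1 and whole 2, at 31.8, 51.5, 106 and 92.7 CPM over the 4 sorted stages to E14.5, and at 18.9 CPM proximally and 40.02 CPM distally. *Sostdc1* was 4.91-fold lower at E16.5 proximal than at E14.5 (4.73 to 5.09), the largest of the 2-fold steps down among the members.

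Steps of at least 2-fold were counted among genes at 5 CPM or more in either library. From E11.5 to E12.5, 7 members were counted and none reached 2-fold, where 3% of 10245 counted genes were higher by that much and 1.33% lower, and *Dkk2* stood just below at 1.97-fold higher (1.83 to 2.12). From E12.5 to E13.5, 1 of 7 counted members was higher, *Sostdc1* at 2.06-fold (1.96 to 2.16), against 2.16% of all counted genes, and none was lower (1.89%). With TMM scaling (trimmed mean of M-values, which aligns the bulk of genes) *Sostdc1* fell short of 2-fold, at a log2 difference of 0.98. From E13.5 to E14.5, 2 of 9 were higher, *Rspo1* and *Dkk1*, the latter by 4.87-fold (3.84 to 6.26), against 5.03%, and none was lower (6.57%). *Dkk2* was just below 2-fold (log2 difference 0.97) and past it with TMM scaling (1.20) or equal weight of cells (1.18), which made 3 members. From E14.5 to E16.5 proximal, 1 of 10 was higher, *Sfrp4*, against 5.78%, and 4 were lower, against 6.81%. Those 4 were *Sostdc1*, *Rspo1*, *Dkk1* (3.25-fold, 2.91 to 3.63) and *Dkk2* (2.31-fold, 2.26 to 2.36). *Rspo1* from E13.5 to E14.5, *Dkk1* at both of the last steps and *Sfrp4* at the last entered the counts only through the library where they were high, so nothing is read from these counts against the shares of all genes.

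The median log2 difference of all counted genes was -0.19 at the step from E13.5 to E14.5 and -0.18 at the step to E16.5 proximal. That of the counted members was 0.47 and -0.92. These include members counted only through the library where they were high, so the member medians are not read against those of all genes. TMM scaling moved the medians of all genes to 0.05 at both steps, and with it the differences of *Sfrp1* and *Sostdc1* from E13.5 to E14.5 and of *Wif1* at the last step changed sign, none of which had reached 2-fold. With the same scaling the *Dkk2* difference of the last step was -0.98 on the log2 scale, just short of 2-fold. The E16.5 proximal segment lacked the autopod, so stage and segment cannot be told apart in that step. Cell type markers moved with it: the summed chondrocyte markers went from 1105 to 5409 CPM, the 10 fibroblast markers from 149 to 1245 CPM, the 10 dermal fibroblast markers from 1504 to 992 CPM and the distal or undifferentiated mesenchyme markers from 172 to 18.4 CPM. The 14 muscle fibre markers went from 23.1 to 124 CPM and the 7 erythroid markers from 0.77 to 110 CPM. The part of all these in the step was not tested.

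The comparison of both E16.5 segments asked where along the limb the members were higher. Of 9 counted members, 2 were at least 2-fold higher in the distal library, where 4.5% of 10130 counted genes were, and 1 was lower, against 2.57%. *Dkk3* was 2.47-fold higher distally (2.37 to 2.56) and *Sostdc1* 2.12-fold higher (2.04 to 2.21), whereas *Sfrp4*, counted only through its proximal level, was 2.76-fold lower (2.54 to 2.99). *Dkk1* was 2.02-fold higher distally (1.80 to 2.27) but stayed below 5 CPM in both libraries. With TMM scaling, which moved the median of all genes from 0.10 to -0.06, *Sostdc1* no longer reached 2-fold. Cell type markers moved with the segments: the 11 measured chondrocyte markers summed to 5409 CPM proximally and 1282 CPM distally, the 14 muscle fibre markers to 124 and 35.5 CPM, and the 8 markers of distal or undifferentiated limb bud mesenchyme to 18.4 and 155 CPM, with none of the muscle fibre genes at 0. Their part in these differences was not tested.

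Sorted E11.5 cells were compared with both whole limb libraries in a test, which asked whether tdTomato+ cells differed from other mesenchymal cells of the limb bud. UMIs were summed over 3156 sorted cells and over 5109 and 5336 whole limb cells, with muscle precursor, epithelial, blood, vessel and glial clusters left out. This was the only comparison with replicates, and with 1 residual degree of freedom the sorted library was assumed to vary like the whole limb libraries. By the quasi-likelihood test of edgeR with Benjamini-Hochberg adjustment, 8030 of 15080 genes (53.2%) passed 0.05, 26.8% higher and 26.4% lower in sorted cells. Of the members, 9 were tested, 5 were higher, 3 were lower and 1 was not called, while *Sfrp4* fell below the count filter with 3 or 4 UMIs per library.

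*Dkk1* had 3.0 CPM in sorted cells against 35.1 and 26.1 CPM in whole 1 and whole 2, a log2 difference of -3.53 ± 0.17 (SE) with an edgeR adjusted p of 1.78e-91. The sorted value lay well below both whole limb values, which themselves differed. *Rspo1* was at 1.66 CPM against 3.84 and 4.17, lower by a log2 difference of -1.45 ± 0.24 (edgeR adjusted p = 8.47e-09). *Sfrp1* was at 41.0 against 47.5 and 49.0 CPM, a log2 difference of -0.41 ± 0.11 (edgeR adjusted p = 0.000695). These 3 genes were below both whole limb libraries.

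The 5 members that were higher lay above both whole limb libraries. *Dkk2* was at 32.1 CPM against 13.7 and 12 (log2 difference 1.14 ± 0.13, edgeR adjusted p = 3.62e-18). *Dkk3* was at 9.13 CPM against 3.88 and 3.58 (log2 difference 1.11 ± 0.17, edgeR adjusted p = 6.91e-10). *Sfrp2* was at 183 CPM against 81.1 and 98.0 (log2 difference 0.85 ± 0.09, edgeR adjusted p = 1.68e-18). *Wif1* was at 74.7 CPM against 44.3 and 46.6 (log2 difference 0.54 ± 0.10, edgeR adjusted p = 9.09e-07). *Sostdc1* was at 32.0 CPM against 22.3 and 23 (log2 difference 0.32 ± 0.12, edgeR adjusted p = 0.023). *Rspo3* was at 65.6 CPM against 57.9 and 54.7 and was not called (log2 difference 0.04 ± 0.10, edgeR adjusted p = 0.757).

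**Figure D2:**
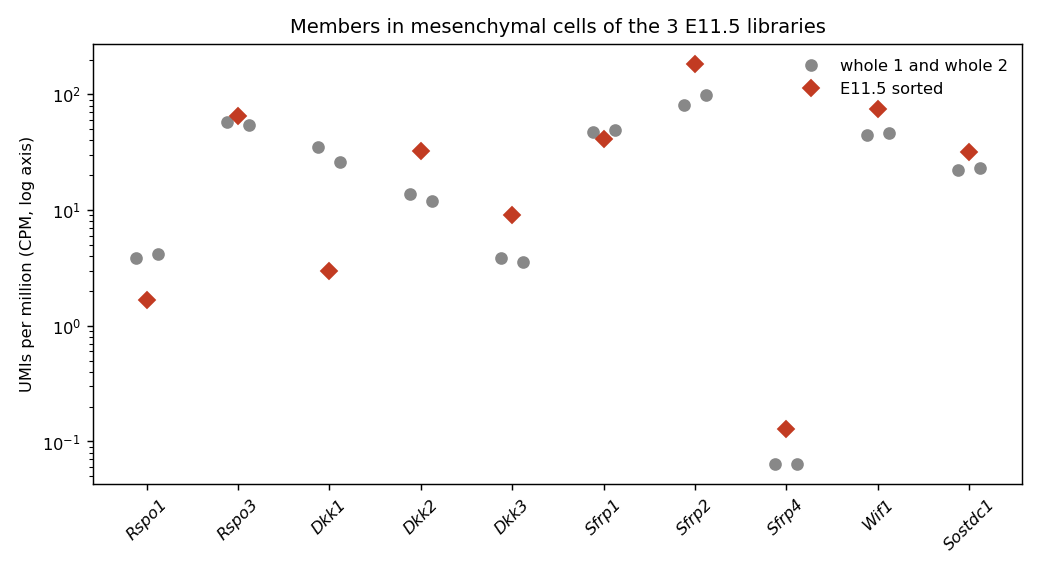
Level of each member (CPM, log axis) in mesenchymal cells of the E11.5 libraries, with a red diamond for the sorted library and grey points for whole 1 and whole 2. *Dkk1* lies at 3.0 CPM for sorted cells, far under the 35.1 and 26.1 CPM of whole limbs, and *Dkk2* lies the other way at 32.1 against 13.7 and 12 CPM.

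Marker sums differed in this comparison. The 9 tenocyte markers summed to 321 CPM in the sorted library and to 75.1 and 73.9 CPM in whole 1 and whole 2, the 7 joint markers to 134 against 47.1 and 44.7 CPM, and the part of either in the result was not tested. The 8 distal or undifferentiated limb bud markers summed to 286 CPM in the sorted library and to 1400.5 and 1262 CPM in whole 1 and whole 2. When cells with a *Hoxa13* or *Hoxd13* UMI were left out, 2997 sorted cells and 3265 and 3519 whole limb cells remained. *Dkk1* was then lower by a log2 difference of -3.56 and *Rspo1* by -2.07, and *Dkk2* was higher by 0.69, *Dkk3* by 0.95 and *Sfrp2* by 0.51, all called, as was *Sfrp1* (-0.88). *Wif1* (log2 difference 0.11, edgeR adjusted p = 0.366, range over all alternatives 1.3e-09 to 0.366) and *Sostdc1* (log2 difference -0.10, edgeR adjusted p = 0.521, range 0.00247 to 0.521) were not called, and *Rspo3* was higher by 0.46 (edgeR adjusted p = 8.12e-05, range 8.12e-05 to 0.905). *Sostdc1* was also not called without the filter on low counts or with DESeq2.

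The other genes of the pathway were counted from fixed lists in the same E11.5 test, where 26.8% of all genes were higher and 26.4% lower. Cells with a *Hoxa13* or *Hoxd13* UMI were left in for these list counts. The part of the difference in distal markers in them was not tested. Of 9 tested Wnt feedback targets, 8 were lower in sorted cells and 1 was higher, with a median log2 difference of -1.90 against 0.01 over all genes. *Axin2*, which encodes a scaffold of the β-catenin destruction complex, was lower by a log2 difference of -2.05, and the transcription factor *Sp5* and the Wnt inhibitor *Apcdd1* by -3.05 and -2.75, whereas *Dact1* was higher by 0.33. *Sp5* and *Apcdd1* were scarce, each at 0.0952 CPM in sorted cells. In whole 1 and whole 2 *Sp5* was at 2.05 and 0.998 CPM and *Apcdd1* at 0.449 and 0.782 CPM. The CPM values of list genes in this paragraph are over all cells outside epithelial-like clusters. The log2 differences are over the mesenchymal cells of the test, so both do not match exactly. Of 18 tested receptors and co-receptors, 5 were higher and 1 lower, with *Fzd8* at 1.48, *Fzd6* at 1.31, *Lgr5* (an R-spondin receptor) at 1.24 and *Fzd10* at -3.05. Of 12 tested Wnt ligands and export genes, 6 were higher and 4 lower, with *Wnt9a* at 2.90, *Wnt11* at 1.97, *Wnt2* at -1.30 and *Wnt5a* at -1.21. Their extremes were scarce transcripts: *Wnt8a* had 1.05 CPM in sorted cells against 0 and 0.0196 CPM in whole 1 and whole 2. *Wnt3* had no UMI in sorted cells (where 3 UMIs would be 0.0952 CPM) and was at 0.234 and 0.235 CPM in whole 1 and whole 2. Of 8 tested other secreted modulators, 1 was higher, *Igfbp4* at 0.61, and 3 were lower, the Wnt deacylase *Notum* at -2.95, *Rspo4* at -2.94 and *Draxin* at -0.88. Between single sorted libraries at most 2 genes of any of these 4 lists passed 2-fold in 1 direction at any step, of 2 to 16 counted per list. From E14.5 to E16.5 proximal 6.81% of all counted genes were lower and 5.78% higher. There 2 of 7 feedback targets (*Axin2* and *Sp5*) were lower and none higher. Of 8 ligand and export genes 2 were lower (*Wnt11* and *Wnt5a*) and 1 higher (*Wnt2*). Of 16 receptors and co-receptors 2 were higher and 2 lower, and of 3 other modulators none passed. In the distal against the proximal segment 2 of 8 counted feedback targets were at least 2-fold higher and none lower, beside 4.5% and 2.57% of all counted genes. These were *Axin2* (31.6 against 12.5 CPM) and *Tcf7* (9.98 against 4.95 CPM). *Tcf7* was counted only through its distal level, was just past 2-fold and is not past it with TMM scaling. Of the other lists, *Fzd7* and *Wnt4* were higher and *Frzb*, *Fzd9* and *Wnt2* lower by that much. With TMM scaling *Fzd7* and *Wnt4* are not past 2-fold either. *Frzb* was counted only through its proximal level. At the step from E14.5 to E16.5 proximal *Fzd5* and *Fzd10* were counted only through the library where they were high. Nothing is therefore read from the list counts between single sorted libraries against the shares of all genes.

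Cell types were then examined. Clusters were built without the members, the Wnt lists or *Hic1*, and a cluster was called "-like" after markers of a class. A cluster is set against the rest of its own library as a description only. At E13.5 most members were already uneven. *Rspo3* was at 319 CPM in the early mesenchymal progenitor-like cluster led by *Crtac1*, *Nrtn* and *Hpse2* (197 cells) and at 28.0 CPM in the unnamed cluster led by *Wwp2* and *Matn4* (1319 cells). That *Wwp2* and *Matn4* cluster had the highest *Dkk3* (81.3 CPM) and *Sfrp1* (106 CPM), with *Sfrp2* at 301 CPM. An unnamed cluster of 240 cells led by *Gatm* and *Prox1* had the highest *Rspo1* (34.0 CPM, 61.8% of the *Rspo1* UMIs of the library in 3.92% of its cells), *Dkk1* (10.5 CPM), *Dkk2* (226 CPM) and *Wif1* (103 CPM).

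At E14.5 the highest cluster held 96.7% of the UMIs of *Rspo1*, 84.1% for *Sfrp4* and 72.5% for *Dkk1*, and at most 50.4% for the other 7 members. The dermal fibroblast-like cluster led by *Calb1*, *Nrgn* and *Sp5* (1136 cells, 13.6% of the library) held *Rspo1* at 198 CPM (191 to 204), and *Dkk1* at 37.1 CPM (34.5 to 39.8). *Rspo1* UMIs were in 33.4% of thinned cells of that cluster and in 0 of the 272 cells of the *Nefm* and *Gria2* cluster (which allows up to 1.35%), with median depths of 16504 and 11942 UMIs. *Rspo1* was at 0.629 to 2.11 CPM in the other clusters of at least 50 cells. *Dkk2* was highest in the unnamed cluster led by *Prss12*, *Pappa* and *Dmrt2* (2079 cells, 310 CPM), which also had the highest *Sfrp4* (11.4 CPM). *Wif1* was highest in the unnamed cluster led by *Six2*, *Mia* and *Matn4* (1245 cells, 239 CPM), as was *Dkk3* (39.7 CPM).

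*Rspo3* was at 449 CPM in the unnamed *Nefm* and *Gria2* cluster and at 370 CPM in the perichondrial or osteogenic-like cluster (692 cells), where *Sfrp1* was highest (101 CPM) and *Sfrp2* lowest (45.4 CPM). The *Nefm* and *Gria2* cluster also had the highest *Sfrp2* (652 CPM) and *Sostdc1* (213 CPM). Opposite extremes were thus seen for *Sfrp1* and *Sfrp2*, which belong to the same family.

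**Figure D3:**
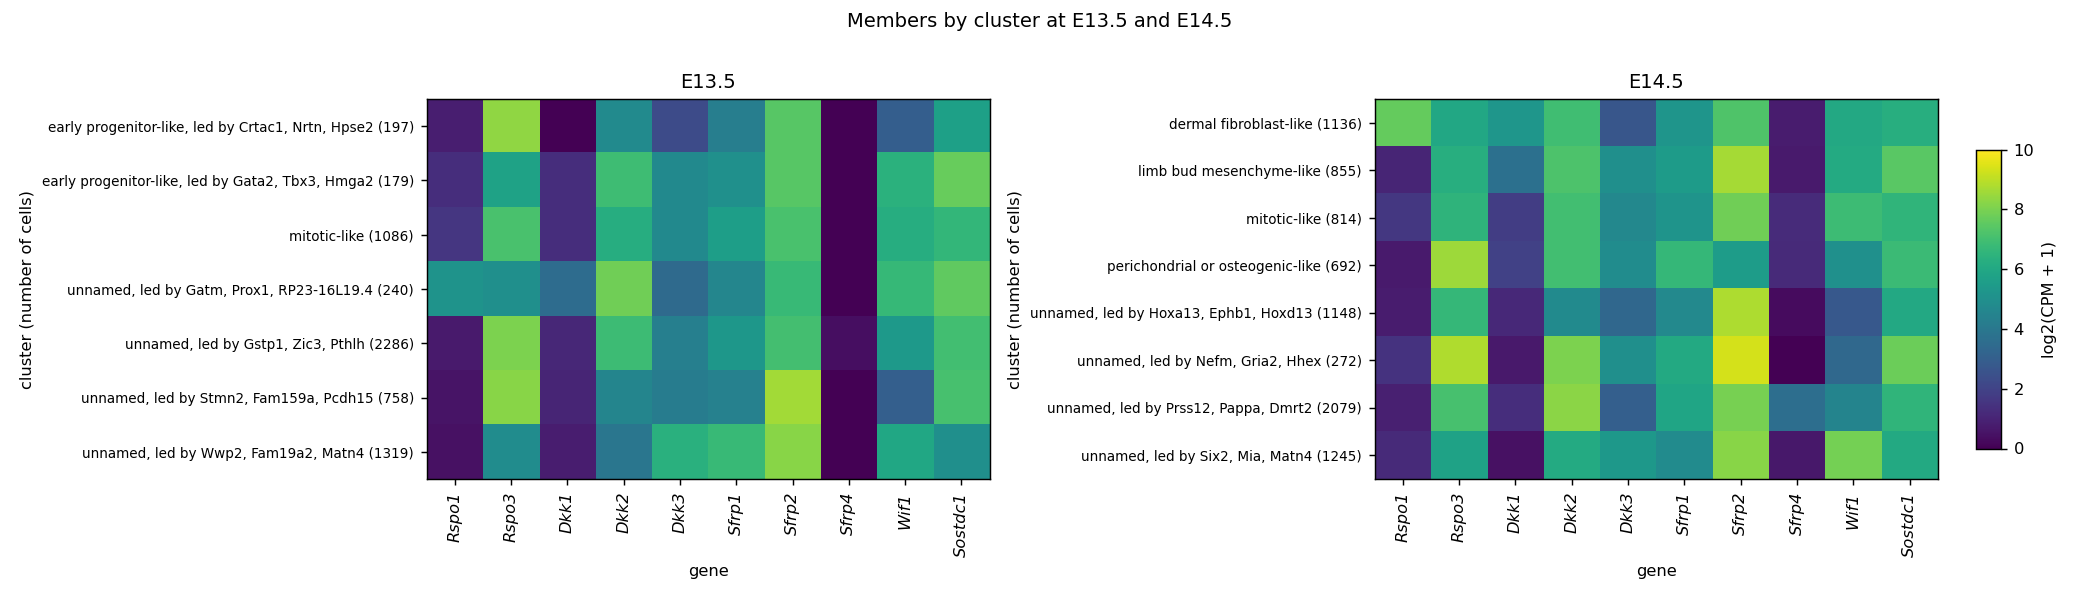
Level of each member, as log2(CPM + 1), by cluster with its number of cells, at E13.5 (left) and E14.5 (right). *Rspo1* is bright in a single E14.5 row, the dermal fibroblast-like cluster at 198 CPM, and *Dkk2* and *Sfrp4* are brightest in the row led by *Prss12* (310 and 11.4 CPM).

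At E16.5 *Rspo1*, *Rspo3*, *Dkk2*, *Dkk3* and *Sfrp2* had the same highest cluster in both segments. The share of all genes that do so was not computed, so this is a description only. *Rspo1*, *Dkk1*, *Rspo3* and *Wif1* were high in dermal fibroblast-like clusters, and *Dkk2*, *Sfrp2*, *Sfrp1* and *Sfrp4* in an unnamed cluster led by *Fhod3*, *Wfdc2* and *Grin2a*. *Dkk2*, *Sfrp1* and *Sfrp4* were also high in fibroblast-like clusters, as was *Sfrp2* proximally. Distally *Sfrp2* was at 86.8 CPM in the fibroblast-like cluster led by *Cbln2*, against 116 CPM in its library. The second highest *Sfrp2* was in the *Btc*, *Lhx9* and *Grpr* cluster (478 CPM proximally and 176 CPM distally).

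In the dermal fibroblast-like cluster led by *Vax2os*, *Cldn10* and *Nrgn* (1025 proximal and 327 distal cells), *Rspo1* was at 89.8 CPM (85.4 to 94.4) proximally and 112 CPM (103 to 121) distally. *Rspo1* UMIs were in 24.7% of its thinned proximal cells and in 0 of 174 cells of the *Btc*, *Lhx9* and *Grpr* cluster (which allows up to 2.10%), at median depths of 15428 and 13529 UMIs. *Dkk2* in the same dermal cluster was at 9.90 CPM proximally and 6.10 CPM distally, and a UMI of it was seen in 1.27% and 1.83% of thinned cells, the lowest share of any cluster of at least 50 cells in either library. A mitotic-like cluster led by histone genes also held *Rspo1* (66.1 CPM) and *Dkk1* (16.8 CPM) with *Dkk2* at 5.37 CPM in 318 proximal cells, and in 288 distal cells it had the highest *Dkk1* of that library (27.2 CPM). The distal *Vax2os* cluster was close, at 24.8 CPM with an overlapping interval. Dermal fibroblast-like cells had the highest distal *Dkk1* at resolution 2 (29.2 CPM) and with thinned cells (31.6 CPM). The E14.5 dermal fibroblast-like cluster had had *Dkk2* at 121 CPM. Cell sets differ between those clusterings, so these values are given side by side only.

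The smaller dermal fibroblast-like cluster led by *Sox2* and *Foxd1* (96 proximal and 555 distal cells) had *Rspo3* at 303 and 225 CPM, *Wif1* at 377 and 236 CPM, *Sostdc1* at 188 and 47.3 CPM and *Dkk1* at 59.1 and 19.6 CPM. All 4 were higher in the proximal cells. In coarser clusters (resolution 0.5) the highest proximal level of *Wif1* was in chondrocyte-like cells (212 CPM), of *Dkk1* in mitotic-like cells (16.8 CPM), of *Sostdc1* in epithelial-like cells (108 CPM) and of *Rspo3* in distal or undifferentiated mesenchyme-like cells (166 CPM, and distally in mitotic-like cells at 134 CPM), and at resolution 2 that of *Wif1* was in a cluster called chondrocyte-like but led by *Gdf5*, *Tnn* and *Fmod* (634 CPM). *Dkk1* went the other way in the *Vax2os* cluster, at 10.5 CPM (9.06 to 12.2) proximally and 24.8 CPM (20.7 to 29.4) distally. Proximal and distal cells of the dermal class came mostly from different clusters, the *Vax2os* cluster proximally and the *Sox2* cluster distally.

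The cluster led by *Fhod3*, *Wfdc2* and *Grin2a* (207 proximal and 1047 distal cells) had *Dkk2* at 421 CPM (399 to 443) and 391 CPM (382 to 400.5), and *Sfrp2* at 634 and 388 CPM. *Dkk2* UMIs were in 59.4% and 54.2% of its thinned cells, at median depths of 15643 and 16354 UMIs. In coarser clusters (resolution 0.5) the highest proximal level of *Dkk2* (178 CPM), *Sfrp2* (287 CPM), *Sfrp1* (122 CPM) and *Sfrp4* (49.6 CPM) was instead in a fibroblast-like cluster led by *Wnt2*, *Ly6a* and *Fabp4*. In the *Fhod3* cluster itself *Sfrp4* was at 189 CPM (174 to 204) proximally and 14.7 CPM (13 to 16.6) distally, and *Wif1* at 251 CPM (235 to 269) and 35.4 CPM (32.7 to 38.2). *Dkk2* thus differed little between the segments in this cluster, in contrast to *Sfrp4* and *Wif1*. The size of the *Sfrp4* values depended on the clustering: at resolution 2 the highest was 112 CPM proximally, in a cluster led by *Grin2a*, *Fhod3* and *Nefm*, and 62.9 CPM distally, in fibroblast-like cells. The proximal cells of this cluster were 1.86% of their library and held 23.8% of its *Sfrp4* UMIs.

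Fibroblast-like clusters held further *Sfrp4*. The cluster led by *Cbln2*, *Wnt2* and *Clec3b* (1570 proximal and 129 distal cells) had *Sfrp4* at 37.7 and 26.5 CPM, *Sfrp1* at 148 and 122 CPM and *Dkk2* at 174 and 277 CPM. A proximal fibroblast-like cluster led by *Akr1c18* and *Ly6a* (415 cells) had *Sfrp4* at 33.2 CPM and *Sfrp2* at 375 CPM. Fibroblast-like cells as a class held 53.3% of proximal *Sfrp4* UMIs in 18% of cells. *Sfrp4* UMIs were in 8.47% of thinned proximal cells of the *Cbln2* cluster and in 0 of 318 cells of the mitotic-like cluster led by histone genes (which allows up to 1.15%), at median depths of 17095 and 21741 UMIs. *Sfrp1* was highest proximally in an unnamed cluster of 126 cells led by *Car3*, *Agt* and *Wfdc18* (165 CPM).

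*Dkk3* was highest in the distal or undifferentiated limb bud mesenchyme-like cluster led by *Btc*, *Lhx9* and *Grpr* in both segments, at 135 CPM (121 to 150.2) in 174 proximal cells and 187 CPM (178 to 196) in 559 distal cells. In finer clusters (Leiden resolution 2) its highest cluster was called chondrocyte-like proximally (led by *Gdf5*, *Tnn* and *Fmod*, 125 CPM) and joint-like distally (led by *Btc*, *Tspan15* and *Grpr*, 218 CPM). It was at 99.5 and 88.4 CPM in the perichondrial or osteogenic-like cluster. Cartilage and tendon cells carried *Wif1*: it was at 215 CPM in chondrocyte-like cells (1063 proximal cells, 30.0% of proximal *Wif1* UMIs) and at 202 and 127 CPM in tenocyte-like cells (682 proximal and 417 distal cells). *Rspo3* in the perichondrial or osteogenic-like cluster was at 251 and 128 CPM.

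**Figure D4:**
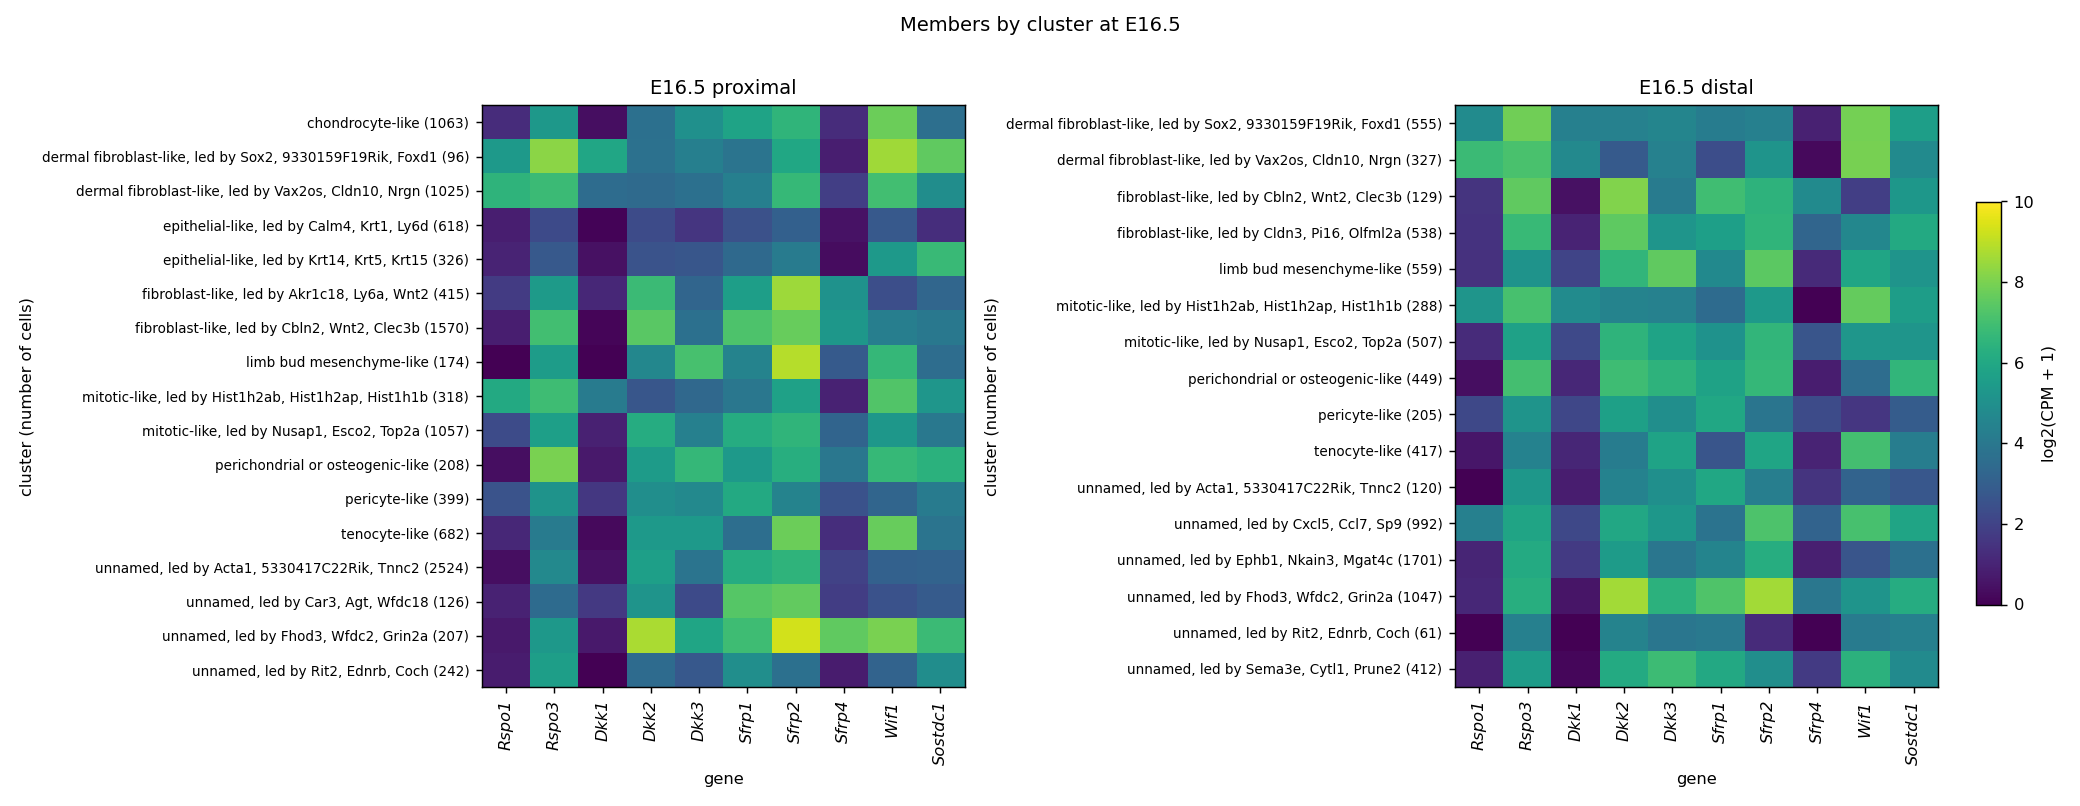
Level of each member, as log2(CPM + 1), by cluster with its number of cells, in the E16.5 proximal (left) and distal (right) libraries. The dermal fibroblast-like rows are bright for *Rspo1*, *Rspo3* and *Wif1* and dark for *Dkk2* (9.90 CPM in the proximal *Vax2os* row), and the row led by *Fhod3* is brightest for *Dkk2* (421 and 391 CPM).

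Within the 12 clusters with at least 50 cells in each segment, the segments were compared cluster by cluster, in those where a member reached 5 CPM. Over all genes and these clusters, 5.91% of the gene and cluster pairs were at least 2-fold higher distally and 3.85% proximally, with 3.25% to 10.3% and 2.20% to 8.56% in single clusters. *Sfrp2* was at least 2-fold higher proximally in 7 of 12 clusters and by that much distally in none, although its level over the whole libraries differed little (139 and 116 CPM). *Dkk3* was at least 2-fold higher distally in 4 of 12 clusters and proximally in none. *Wif1* was at least 2-fold higher proximally in 4 of 12 and distally in 1, the latter with overlapping intervals, and *Sfrp4* proximally in 3 of 5. *Dkk2* went both ways, with 4 of 12 higher distally and 2 higher proximally, such as 93.8 distally against 23.6 CPM in the *Btc* cluster, and 17.2 distally against 41.03 CPM in tenocyte-like cells. *Sostdc1* also went both ways, with 3 of 12 higher distally and 2 proximally, and *Sfrp1* was higher proximally in 3 of 12 and distally in none at 2-fold. *Rspo3* was higher proximally in 1 of 12, and *Dkk1* reached 5 CPM in 3 clusters, with 1 in each direction. *Rspo1* reached 5 CPM in 3 clusters and differed by 2-fold in none.

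The members found in the same cells were counted after thinning, against the number that independent detection over the library would give. *Rspo1* and *Dkk2* were together in 7 cells at E16.5 proximal where independent detection gave 47.3 cells, a ratio of 0.148 (0.0594 to 0.305). The ratio was 0.183 (0.0734 to 0.376) at E16.5 distal and 0.374 (0.266 to 0.511) at E14.5. In earlier libraries, where at most 6 cells held both genes, it was above 1 except in sorted E11.5 cells: it was 3.03 (0.983 to 7.06) and 3.16 (1.02 to 7.37) in whole 1 and whole 2, 1.82 (0.376 to 5.33) at E12.5 and 1.27 (0.465 to 2.76) at E13.5, and no sorted E11.5 cell held both where 0.303 cells were given by independence. For *Rspo1* and *Sfrp1* the ratio was 0.365 (0.220 to 0.571) proximally, 0.149 (0.0308 to 0.436) distally and 0.788 (0.552 to 1.09) at E14.5. *Rspo1* and *Wif1* were together more often than independent detection gave at E16.5, with 2.49 (2.06 to 2.99) proximally and 2.88 (2.29 to 3.58) distally, but less often at E14.5 (0.694, 0.484 to 0.966). *Dkk2* and *Sfrp4* were together in 111 proximal cells against 37, a ratio of 3.0 (2.47 to 3.61), and *Sfrp2* and *Sfrp4* had a ratio of 2.23 (1.87 to 2.64). Cells of 1 library are not replicates, so the ratios describe these libraries.

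**Figure D5:**
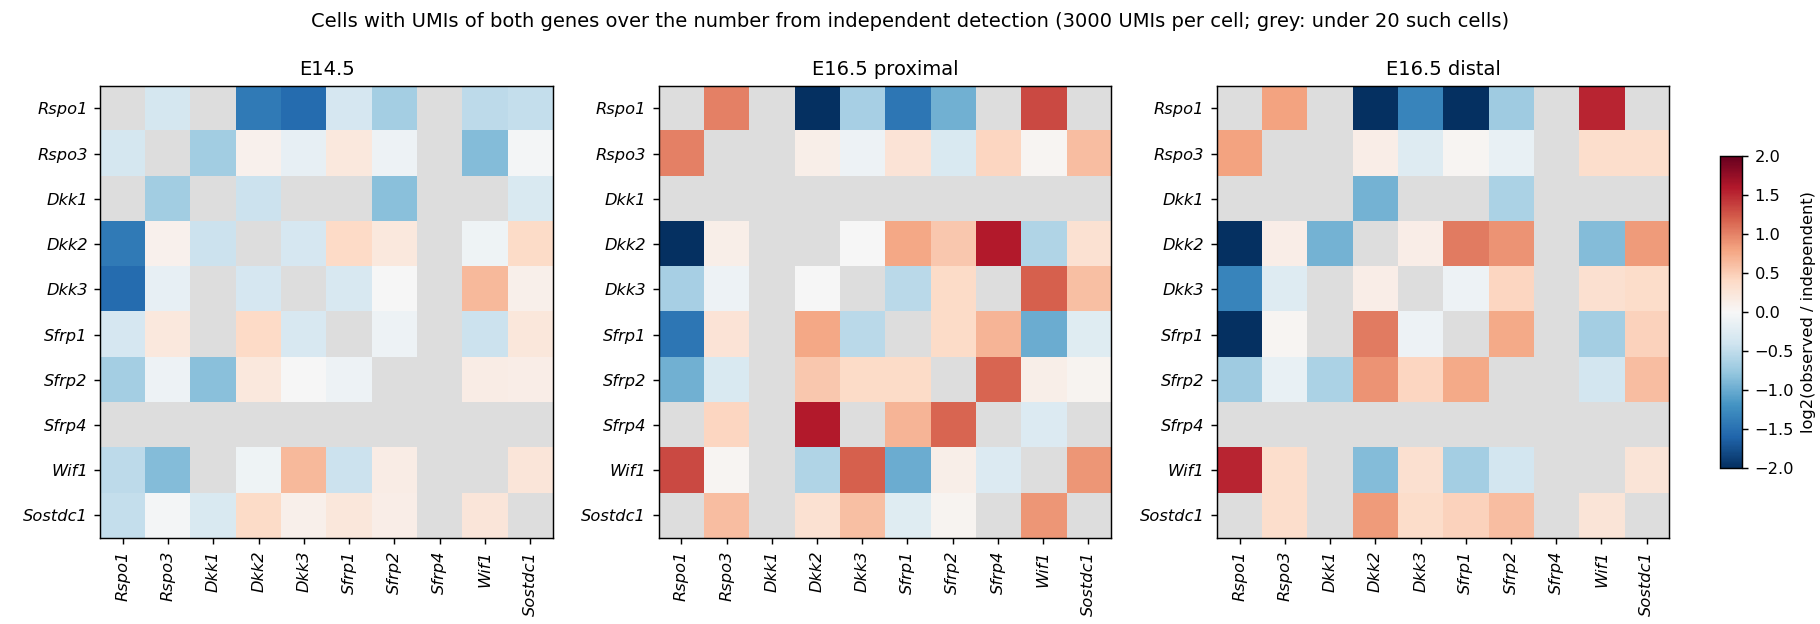
Ratio of cells with UMIs of both genes to the number from independent detection, as log2, for pairs where independent detection gave at least 20 cells, at E14.5 and in both E16.5 segments (grey: fewer). The cell of *Rspo1* and *Dkk2* is blue in all 3 libraries (ratios 0.374, 0.148 and 0.183), and that of *Rspo1* and *Wif1* is red in both E16.5 libraries (2.49 and 2.88) and pale blue at E14.5 (0.694).

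Genes with the most similar pattern were sought over 86 groups of at least 50 cells of 1 cluster and 1 library, among 10047 genes at 20 CPM or more in some group, by Pearson's r of log2(CPM + 1). These groups share libraries, depth and cell lineage, so r is a description. *Dkk1* was most like *Tcf7* (r = 0.86), *Nkd1* (0.83) and *Axin2* (0.82), of which all 3 are on the Wnt feedback target list. *Rspo1* was most like *Crnde* (0.83), *Adamts20* (0.82) and *Irx5* (0.80), and *Rspo3* like *Crabp1* (0.63), *Pdgfra* (0.62) and *Usp22* (0.61). *Dkk2* was most like *Piezo2* (0.80), *Kctd12* (0.79) and *Kcnd2* (0.78), and *Dkk3* like *Kazald1* (0.85), *Col8a2* (0.84) and *Sec31a* (0.82). *Sfrp4* was most like *Pi15* (0.83) and the Wnt ligand gene *Wnt2* (0.82), *Sfrp1* like *Tox* (0.68) and *Sfrp2* like *Wfikkn2* (0.70). For *Wif1* and *Sostdc1* no r passed 0.61 and 0.68.

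The whole limb libraries were clustered with the sorted E11.5 cells. *Dkk1* was at 88.7 and 61.5 CPM, and *Sostdc1* at 60.9 and 55.3 CPM, in the unnamed cluster led by *5033428I22Rik*, *Zfp804a* and *Tbx2* in whole 1 and whole 2. In whole 2 both genes were slightly higher in the cluster led by *Pcdh8*, *Tbx3os1* and *Itm2a*, at 63.4 and 55.7 CPM. *Rspo1* was at 20.4 CPM in both libraries in the unnamed cluster led by *Pax1*, *Irx3* and *Irx5*, which held 55.5% and 61.6% of its UMIs. *Wif1* was at 186 and 183 CPM in the cluster led by *Calb2* and *Lum*. The chondrocyte-like cluster had the highest *Sfrp2* (211 and 261 CPM) and *Sfrp1* (129 and 125 CPM). These levels differed between whole 1 and whole 2 by less than 1.5-fold, but *Dkk2*, also highest in the *Calb2* and *Lum* cluster, was at 54.2 CPM (43.3 to 67.1) in whole 1 and 29.8 CPM (22.2 to 39.1) in whole 2.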

How the data were processed

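Single-cell 3′ libraries of mouse forelimbs were analysed: 6 of sorted tdTomato+ cells and 2 of whole E11.5 limbs, grouped by the GEO labels. The deposited files hold raw UMI counts per gene and barcode, obtained by the authors with Cell Ranger on an mm10 genome with added transgenes, version 3.0.2 for 5 sorted libraries and 6.0.1 for E16.5 distal per the file headers, whereas the whole limb headers name none. Cells with at least 3000 UMIs and at most 10% mitochondrial UMIs were kept. Intervals cover counting error only (95%, exact).

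Counts were clustered in 3 sets (time course, E16.5 segments, E11.5) on 2000 variable genes, 50 principal components and 25 neighbours by Leiden at resolution 1 (scanpy 1.11.5, leidenalg 0.10.2, Python 3.11.15), leaving out the members, Wnt lists, *Hic1*, transgenes, mitochondrial, globin and sex-linked genes. Names came from marker lists of 17 classes: the class with most of its list raised (log2 fold of at least 1, seen in 10% of cells, 3 genes or more) gave the name, unless markers of another class outnumbered its own in the top 10 genes. After the clusters had been seen, a name was also dropped with none of its markers in the top 10 genes and under 75% raised, or with 1 and under 40% raised, and the tenocyte name where cartilage genes (*Mia*, *Matn4*, *Otor*, *Cytl1*) outnumbered its markers there. Doublets were kept: Scrublet's automatic threshold called under 0.5% of each library and was not used, and as an alternative the highest scores were removed at 0.8% per 1000 barcodes. In droplet data free RNA gives UMIs in cells that do not express a gene, so shares are set beside the lowest share of any cluster.

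E11.5 sums were tested in R 4.3.3 by edgeR 4.0.16 (quasi-likelihood, TMM, Benjamini-Hochberg at 0.05). Alternatives used DESeq2 1.42.0 and limma 3.58.1 (voom). The edgeR test was also run on simulated counts, drawn with the same dispersion in every library. That check therefore does not bear on the assumption that the sorted library varies like the whole limb libraries. Where nothing states separate animals, p-values measure only the spread between these libraries. Sorted libraries have no replicates and were compared by CPM, with a floor of 3 UMIs for a gene at 0. All 10 members are named, list genes by size (at most 3 per direction) and like genes by rank (3 each), with further gene names taken from cluster leaders and label checks. The members and lists were chosen with earlier results of these data known.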

Additional observations from a re-analysis of the deposited data

Results flagged for a closer look

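Epithelial-like cells were left out of the comparisons between libraries. In the 944 epithelial-like cells of the E16.5 proximal library *Sostdc1* was at 25.5 CPM (23.9 to 27.2), above its 18.9 CPM in the cells that were compared, which is why it is given here. Within them it was at 108 CPM in the cluster led by *Krt14*, *Krt5* and *Krt15* and at 1.51 CPM in the cluster led by *Calm4* and *Krt1*. The other 9 members were lower in the epithelial-like cells than outside them, with *Wif1* at 13.7 against 70.5 CPM. In the 68 epithelial-like cells of the E14.5 library *Sostdc1* was at 93.2 CPM (78.6 to 109.7), and outside them at 92.7 CPM, whereas in the 68 such cells of the E16.5 distal library it was at 27.8 CPM (21.6 to 35.2), below the 40.02 CPM outside them. No cause was tested.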

How the results depend on the processing

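In the E11.5 test, 8030 genes were called, against 4918 without the filter on low counts and 4863 with DESeq2. The counts of members called, 5 higher and 3 lower, stayed within 1.5 times under every alternative with a test. *Sostdc1* turned to a log2 difference of -0.10 in cells without *Hoxa13* and *Hoxd13* UMIs, and was not called without the filter or with DESeq2. Leaving out whole 1 or whole 2 gave values with no test, from -3.70 to -3.31 for *Dkk1* and from 0.71 to 1.01 for *Sfrp2*, and no member changed sign.

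With TMM scaling, 1 member instead of 0 was at least 2-fold higher from E11.5 to E12.5, 0 instead of 1 from E12.5 to E13.5, and 1 instead of 2 in the distal segment. Equal weight of cells also gave 1 in the distal segment. With genes at 20 CPM or more, 1 member instead of 2 was higher from E13.5 to E14.5, 0 instead of 1 from E14.5 to E16.5 proximal, and 0 instead of 1 was lower in the distal segment. The other 63 of 70 counts for the steps stayed within 1.5 times.

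The highest E16.5 cluster of a member changed with the resolution. Proximally the fold of *Wif1* over the rest went from 6.28 in dermal fibroblast-like cells to 12.4 in the cluster led by *Gdf5* at resolution 2, and that of *Dkk1* from 33.8 in dermal fibroblast-like to 10.6 in mitotic-like cells at resolution 0.5. Of 80 fold values for single members under all alternatives, 70 stayed within 1.5 times. The causes were not tested. No paired analysis was possible because only the whole limb libraries carry replicate numbers, so the groups share fewer than 2 numbers. *Sfrp4* had 3 to 5 UMIs per library before E14.5, and the 5 UMIs at E13.5 leave its fold to E14.5 anywhere from 13.4 to 97.4.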
